A study of Mus musculus with 19 samples.

Results

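Dusk (ZT12, lights off) was compared with dawn (ZT0, lights on) in ribosome-bound mRNA of mouse spinal cord cholinergic neurons. The comparison used 6 of the 19 libraries of the series, the 3 collected at ZT12 and the 3 collected at ZT0. All animals were 10-week-old male mice carrying ChAT-Cre and 1 floxed RiboTag allele (ChAT-Cre;RiboTag fx/+), kept under 12 h of light and 12 h of dark. No group carried a clock mutation or received a drug, and Zeitgeber time is the factor by which the labels separate the groups. RiboTag adds a hemagglutinin epitope to a protein of the ribosome wherever Cre recombinase is active, and ChAT-Cre confines this to cells that have expressed choline acetyltransferase, including cholinergic interneurons as well as motor neurons. The remaining libraries were 12 immunoprecipitates (IPs) from ZT4, ZT8, ZT16 and ZT20, which helped to estimate the spread between animals, and 1 pooled input taken before precipitation.

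The molecular clock is a feedback loop in which BMAL1 (encoded by Arntl) and CLOCK drive E-box genes, among them the Period, Cryptochrome and Rev-erb repressors that later shut the activators down. A second tier of transcription factors, the PAR bZIP proteins DBP, TEF and HLF, carries the rhythm to D-box genes. In many mouse tissues Dbp, Per3 and Tef are more abundant near dusk and Arntl near dawn. Feeding, body temperature and glucocorticoids also change across the light-dark boundary and alter heat shock, cold-inducible and hormone-responsive genes.

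The libraries held 11020299 to 20856626 rounded expected counts at ZT0 and 9762466 to 16816651 at ZT12. Across the 7 cholinergic markers the IPs of both times exceeded the input, with a median log2 ratio of 2.39, whereas the median was -3.41 over 7 oligodendrocyte markers and -4.35 over 6 astrocyte markers. On the first principal component, which held 52.8% of the variance of all 18 IPs, the ZT0 libraries lay between -22.3 and -8.29 and the ZT12 libraries between -12.4 and 8.33, so that the groups overlapped.

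Few genes separated dusk from dawn beyond the spread between animals. Of 15572 genes tested, 5 passed an adjusted p of 0.05 (edgeR quasi-likelihood F-test with Benjamini-Hochberg adjustment), which is 0.0321% of the genes tested. Of these, 4 were higher (0.0257%) and 1 was lower (0.00642%) at ZT12. They included Dbp, the alpha-globin genes Hba-a1 and Hba-a2, and, on the lower side, Fam205a2. At an unadjusted p under 0.05, 1183 genes (7.60%) differed, 646 higher (4.15%) and 537 lower (3.45%). The 3 ZT12 libraries all lay above the 3 ZT0 libraries for 1160 genes (7.45%) and all below them for 1370 genes (8.80%). In sign, 7687 of the 15572 genes had a positive and 7884 a negative difference. These counts and shares are the background for the counts in the gene lists that follow. The calls depended on single animals. Without ZT0 replicate 1, ZT0 replicate 3, ZT12 replicate 1 or ZT12 replicate 2 edgeR called 0 genes, with 797, 705, 625 and 1059 genes respectively at an unadjusted p under 0.05, while DESeq2 called 28 genes with all libraries in place. The DESeq2 calls included Pcdha5, Pcdha8, Pcdhga4 and Pcdhgb7. Their log2 differences of -23.3, 20.3, -23.1 and -21.8 are too extreme to read as fold changes, and the main edgeR fit did not call them. With the 6 libraries alone edgeR called Pcdhga4 (log2 difference -9.86, adjusted p = 0.0347). Among 28 alternative settings, DESeq2 included, 3 called Pcdhga4 and 2 called each of the other genes.

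Dbp, the PAR bZIP factor that serves as a classical clock output, rose from dawn to dusk. It was at 8.9, 10.3 and 11.7 CPM in the ZT0 libraries (counts scaled to library size, CPM) and at 22, 23.5 and 21.8 CPM in the ZT12 libraries. The lowest dusk library was therefore well above the highest dawn library, and the spread within each group was small. The mean rose from 10.3 ± 1.39 to 22.4 ± 0.884 CPM (SD, n = 3), 2.17-fold, with a log2 difference of 1.12 (SE 0.174, 95% CI 0.76 to 1.48, adjusted p = 0.0162). Across the day its mean was lowest at ZT0 and highest at ZT12, with 15.6 CPM at ZT8 and 15.1 CPM at ZT16. The gene lies at chr7:45705100-45710203 on GRCm38.p6 (mm10). Its mean in these 6 IPs was 34.6% of its level in the input on the CPM scale, and the part of RNA from untagged cells in its difference was not tested. Dbp was not called when any 1 of ZT0 replicate 1, ZT0 replicate 2, ZT0 replicate 3, ZT12 replicate 1 or ZT12 replicate 2 was left out, where its adjusted p ran from 0.0781 to 0.218 and its log2 difference from 1.02 to 1.23.

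**Figure D1:**
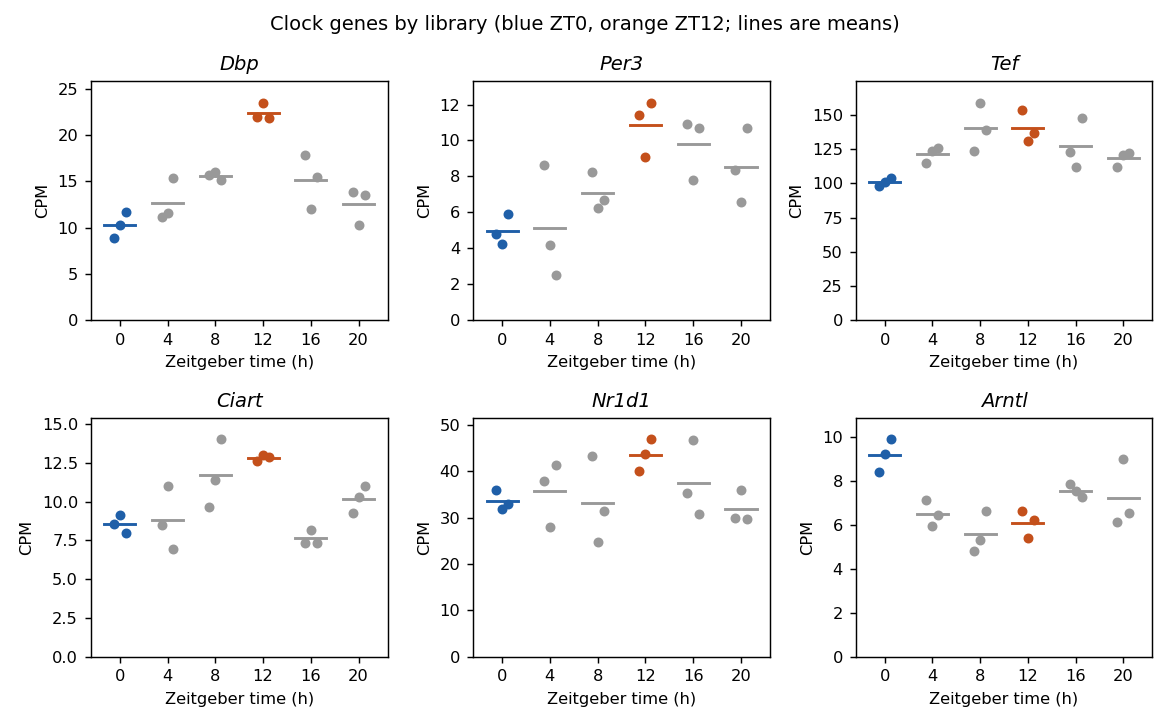
CPM of 6 clock genes in every IP library against Zeitgeber time in hours, with points for animals, lines for means of 3, ZT0 in blue and ZT12 in orange. The dusk points of Dbp, Per3, Tef, Ciart and Nr1d1 lie above all dawn points, and those of Arntl lie below them.

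Per3, a member of the Period family of repressors, had a difference of the size of that of Dbp with a wider error. It was at 4.79, 4.26 and 5.91 CPM at ZT0 and at 11.4, 9.07 and 12.1 CPM at ZT12. All dusk libraries were higher than all dawn libraries. The log2 difference of 1.12 (SE 0.303, 95% CI 0.48 to 1.75) did not pass over all genes (adjusted p = 0.577). The mean of Per3 in the 6 IPs was 28.6% of its input level, and the part of RNA from untagged cells in its difference was not tested. The region just upstream of Per3 is shown because it held the D-box recognised by DBP, TEF and HLF, and that of Ciart, a repressor of BMAL1-CLOCK, because it held the E-box. Sequences are from RefSeq on GRCm38.p6, without the bases that fall inside the annotated gene, 5′ to 3′ on the strand of the gene, with matches in capitals. D-boxes were searched as TTATGTAA or TTACGTAA and E-boxes as CACGTG, on both strands of the 250 bases before each start site.
Per3, chr4:151044708-151044915, minus strand: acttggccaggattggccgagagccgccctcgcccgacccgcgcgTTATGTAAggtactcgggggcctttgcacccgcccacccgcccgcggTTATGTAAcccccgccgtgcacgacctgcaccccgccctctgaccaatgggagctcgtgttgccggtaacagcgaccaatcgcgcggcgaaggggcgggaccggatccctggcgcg
Ciart, chr3:95882258-95882478, minus strand: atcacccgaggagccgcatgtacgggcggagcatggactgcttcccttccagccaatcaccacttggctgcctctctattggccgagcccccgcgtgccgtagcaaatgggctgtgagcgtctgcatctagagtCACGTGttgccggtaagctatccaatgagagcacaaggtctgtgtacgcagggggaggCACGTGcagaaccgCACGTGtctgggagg
The stretch before Per3 held 2 D-boxes, and the stretch before Ciart held 3 E-boxes. Over 32851 promoter windows of 250 bases, longer than the printed stretches of 208 and 221 bases, 0.931% held a D-box and 6.02% an E-box. Among the 17 clock genes with a promoter in the table, 5 had an E-box match in any window (Per1, Cry1, Ciart, Tef and Bhlhe41) and 1 had a D-box match. These counts are of genes, whereas the shares above are of windows. Neither motif was present in these letters in the windows of Dbp or Arntl. The Arntl windows and part of the Dbp window lie inside the annotated gene, so the stretch before it was not fully searched. A match is a description of the sequence and not evidence of binding.

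Of the other PAR bZIP factors, edgeR called neither and DESeq2 called Tef. Tef was at 98.4, 101 and 104 CPM at ZT0 and at 154, 131 and 137 CPM at ZT12. Its groups did not overlap, and the log2 difference was 0.48 (SE 0.111, adjusted p = 0.308 in edgeR and 0.0333 in DESeq2). Hlf was at 8.47, 9.69 and 10.1 CPM at ZT0 and at 15.2, 14 and 8.65 CPM at ZT12, where the third dusk library fell among those of dawn (log2 difference 0.41, adjusted p = 0.667). Nfil3, which represses at the same D-box, had a log2 difference of -0.11 (adjusted p = 0.948), with a sign that turned when ZT0 replicate 1 or ZT12 replicate 2 was left out. The E-box repressors Bhlhe40 and Bhlhe41 were higher at dusk by log2 differences of 0.14 (adjusted p = 0.757) and 0.29 (adjusted p = 0.657), and neither passed.

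Arntl, the gene of BMAL1, was lower at dusk. It was at 8.41, 9.24 and 9.88 CPM at ZT0 and at 6.61, 5.42 and 6.24 CPM at ZT12. All dusk libraries lay below all dawn libraries, with a log2 difference of -0.59 (SE 0.198, adjusted p = 0.591). The partners of BMAL1, Clock and Npas2, had log2 differences of -0.19 (adjusted p = 0.752) and -0.80 (adjusted p = 0.719), and for both the groups overlapped.

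The signs of the repressors were mixed. Ciart was at 8.53, 9.15 and 7.99 CPM at ZT0 and at 12.6, 13 and 12.9 CPM at ZT12, without overlap (log2 difference 0.59, SE 0.181, adjusted p = 0.591). Per1 had a log2 difference of 0.19 (adjusted p = 0.771), Per2 of -0.27 (adjusted p = 0.84) and Cry1 of -0.64 (adjusted p = 0.684). In all 3 the dawn and dusk libraries overlapped. Cry2, the most abundant of the repressors, was at 116, 127 and 121 CPM at ZT0 and at 129, 112 and 123 CPM at ZT12, a log2 difference of 0.0023 with a 95% CI from -0.19 to 0.20.

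Of the nuclear receptors that control Arntl, the Rev-erb repressor Nr1d1 was at 36.1, 31.8 and 32.9 CPM at ZT0 and at 40.1, 43.7 and 46.9 CPM at ZT12. The groups did not overlap, although the log2 difference of 0.37 (SE 0.184, adjusted p = 0.661) did not pass. Its relative Nr1d2 had a log2 difference of 0.20 (adjusted p = 0.744). The opposing activators Rora and Rorb had log2 differences of -0.02 and -0.51, and their libraries overlapped between dawn and dusk.

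Over the 20 clock genes together, 1 was called by edgeR (Dbp) and 2 by DESeq2 (Dbp and Tef). At an unadjusted p under 0.05, 5 were higher and 1 was lower. The libraries did not overlap for 7 genes that were higher and 1 that was lower. The median log2 difference of the 20 genes was 0.147, beside -0.00423 over all genes tested.

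**Figure D2:**
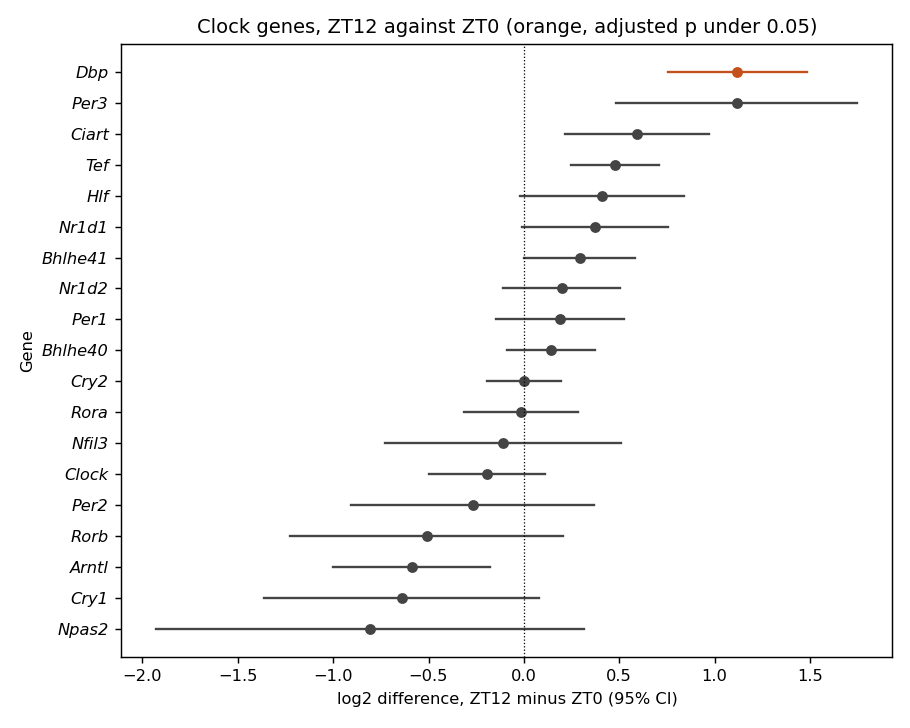
Log2 difference (ZT12 minus ZT0) with its 95% confidence interval for 19 of the 20 clock genes, sorted by size, with genes past an adjusted p of 0.05 in orange. Dbp alone is orange, and the intervals of Per3, Ciart, Tef, Bhlhe41 and Arntl also leave out 0.

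The alpha-globin genes, which encode the oxygen carrier of red blood cells, rose at dusk. Hba-a1 was at 92.8, 133 and 87.2 CPM at ZT0 and at 271, 289 and 237 CPM at ZT12. Hba-a2 was at 79.6, 100 and 70.6 CPM at ZT0 and at 210, 212 and 190 CPM at ZT12. In both genes every dusk library was far above every dawn library. Hba-a1 rose 2.55-fold (log2 difference 1.35, SE 0.228, adjusted p = 0.0255) and Hba-a2 rose 2.45-fold (log2 difference 1.29, SE 0.206, adjusted p = 0.0162). The genes lie at chr11:32283672-32284486 and chr11:32296492-32297310 and are near-identical, so that the division of reads between them is a model estimate. Their sum, fitted in place of the single genes, gave a log2 difference of 1.32 (SE 0.215, adjusted p = 0.0267).

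The beta-globin genes were called by DESeq2 and not by edgeR. Hbb-bs was at 63.2, 90.1 and 58.6 CPM at ZT0 and at 168, 225 and 151 CPM at ZT12 (log2 difference 1.36, SE 0.259, adjusted p = 0.0985 in edgeR and 0.0197 in DESeq2). Hbb-bt was at 9.88, 12 and 5.59 CPM at ZT0 and at 29.6, 23.9 and 19.3 CPM at ZT12 (log2 difference 1.42, SE 0.295, adjusted p = 0.145 in edgeR and 0.00186 in DESeq2). Neither group of libraries overlapped the other. Alas2, which makes heme in red blood cell precursors and was looked up after the globin values were seen, was at 1.47, 1.81 and 1.39 CPM at ZT0 and at 4.83, 5.73 and 4.3 CPM at ZT12 (log2 difference 1.67, SE 0.531, adjusted p = 0.591). Slc4a1 and Bpgm were looked up with Alas2. On the scale shared with the input, the 6 libraries ran from 0.516 to 0.949 CPM for Slc4a1 and from 28.4 to 40.6 CPM for Bpgm. On that scale Alas2 ran from 1.41 to 5.8 CPM. These ranges join both times and give no direction. Those of Slc4a1 and Bpgm are too narrow to hold a rise of the size of the globins, and that of Alas2 is not.

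These 4 globin genes are the erythrocyte marker list itself, and the list's summed level was 222 to 335 CPM at dawn and 597 to 750 CPM at dusk. In these IPs they stood at 16.3% to 30.6% of their input level, among the genes depleted by the precipitation. The sum of 4 endothelial genes was 9.97 to 10.4 CPM at ZT0 and 8.55 to 9.91 CPM at ZT12. Of these 4 genes 3 had a positive difference and Cldn5 a negative one (log2 difference -0.47, adjusted p = 0.693), with a median log2 difference of 0.0998. The summed oligodendrocyte markers were 1830 to 2210 CPM at ZT0 and 1760 to 2110 CPM at ZT12, and microglial markers 9.27 to 11.2 and 9.71 to 11.5 CPM. The part of red blood cell RNA carried into the IP was not tested. The mean of Hba-a1 at ZT4, ZT8, ZT16 and ZT20 lay between 105 and 128 CPM, below its mean at ZT12. More cells of a type and more mRNA per cell cannot be told apart in bulk libraries.

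**Figure D3:**
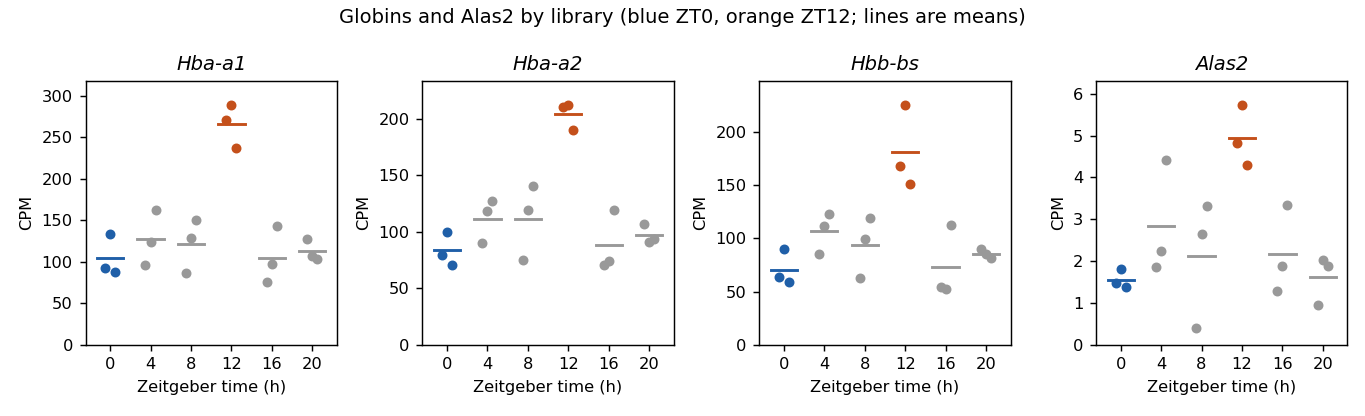
CPM of Hba-a1, Hba-a2, Hbb-bs and Alas2 in every IP library against Zeitgeber time in hours, with points for animals, lines for means of 3, ZT0 in blue and ZT12 in orange. In all 4 genes the ZT12 points stand above the ZT0 points.

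Fam205a2, on chromosome 4 (chr4:42522437-42537578), was the gene called lower at dusk. It was at 16, 11.8 and 14.2 CPM at ZT0 and at 4.24, 3.54 and 7.12 CPM at ZT12, 2.77-fold lower (log2 difference -1.47, SE 0.233, adjusted p = 0.0162). Its reads are shared with near-identical copies, however. In ZT12 replicate 1 the expected counts of Fam205a2 and Fam205a3 were 50.5 and 50.5, and in ZT12 replicate 2 they were 34.5 and 34.5, an equal division. In the other 4 libraries nearly all of the count of the family went to Fam205a2. The family sum was 16.1, 11.8 and 15 CPM at ZT0 and 8.56, 7.19 and 7.12 CPM at ZT12. The summed family was still lower in every dusk library, with a log2 difference of -0.91 (SE 0.201), but it was no longer called (adjusted p = 0.277).

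**Figure D4:**
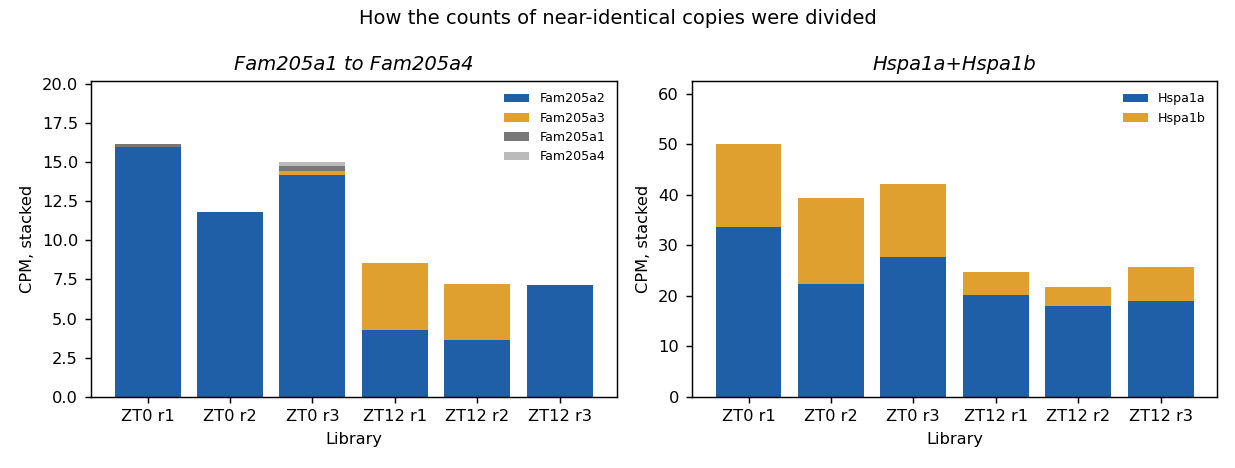
Stacked CPM of the Fam205a copies (left) and of Hspa1a and Hspa1b (right) in the 3 ZT0 and 3 ZT12 libraries, with 1 color per copy. Equal blocks of Fam205a2 and Fam205a3 appear in ZT12 replicates 1 and 2 only, and both family sums are lower in the ZT12 libraries.

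Of 16 temperature-responsive genes 4 had a positive and 12 a negative difference, and edgeR called none of them. Cirbp, which encodes a cold-inducible RNA-binding protein, was at 63.4, 65.1 and 58.3 CPM at ZT0 and at 136, 100 and 95.3 CPM at ZT12. Its relative Rbm3 was at 45.7, 41.9 and 59.3 CPM at ZT0 and at 89.6, 80.2 and 70.6 CPM at ZT12. For both genes the dusk libraries all lay above the dawn libraries. The log2 differences were 0.83 for Cirbp (SE 0.168, adjusted p = 0.145 in edgeR and 0.00196 in DESeq2) and 0.71 for Rbm3 (SE 0.167, adjusted p = 0.349 in edgeR and 0.0333 in DESeq2).

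Among the heat shock genes the lowest p belonged to Hspa1b, which DESeq2 called and the main edgeR fit did not. Hspa1b, which encodes an inducible HSP70, was at 16.4, 17 and 14.5 CPM at ZT0 and at 4.58, 3.75 and 6.83 CPM at ZT12 (log2 difference -1.63, SE 0.337, adjusted p = 0.145 in edgeR and 0.00131 in DESeq2). Its near-identical neighbor Hspa1a was at 33.6, 22.3 and 27.6 CPM at ZT0 and at 20.2, 18 and 18.8 CPM at ZT12 (log2 difference -0.55, adjusted p = 0.591). Reads of the pair were divided by a model as well, and the sum was 49.9, 39.3 and 42.1 CPM at ZT0 and 24.7, 21.8 and 25.7 CPM at ZT12, a log2 difference of -0.86 (SE 0.193, adjusted p = 0.277). The HSP40 co-chaperone Dnajb1 was at 69.8, 65.6 and 68.3 CPM at ZT0 and at 36.4, 45.7 and 54.1 CPM at ZT12 (log2 difference -0.58, adjusted p = 0.591). Both upstream stretches of the pair are shown because they held the same heat shock element, searched only as GAANNTTC, which reads the same on both strands.
Hspa1a, chr17:34972157-34972406, minus strand: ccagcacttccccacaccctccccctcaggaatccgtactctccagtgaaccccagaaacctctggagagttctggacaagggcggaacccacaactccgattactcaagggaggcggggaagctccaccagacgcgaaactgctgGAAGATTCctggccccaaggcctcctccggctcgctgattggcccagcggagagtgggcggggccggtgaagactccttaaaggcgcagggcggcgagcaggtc
Hspa1b, chr17:34959239-34959488, minus strand: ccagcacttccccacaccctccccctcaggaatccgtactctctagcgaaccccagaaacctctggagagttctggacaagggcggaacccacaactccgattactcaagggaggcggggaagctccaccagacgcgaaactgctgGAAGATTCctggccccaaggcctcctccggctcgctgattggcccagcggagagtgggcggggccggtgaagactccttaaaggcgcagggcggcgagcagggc
The 2 stretches were identical at 247 of 250 bases and held the motif in the same place, 96 bases before the start. It occurs in 6.69% of all promoter windows. With a gene counted if any of its windows matched, it occurs in 5 of the 12 temperature genes with a promoter in the table. These were Hspa1a, Hspa1b, Dnaja1, Hspe1 and Hspd1, and a count of genes is not comparable with a share of windows. The libraries of Dnaja1, Hspe1 and Hspd1 overlapped between dawn and dusk, and the letters were not present before Dnajb1, Hsph1, Chordc1 or Hspa4l. They were not present in the Cirbp windows either, which lie inside the annotated gene.

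Of the 16 temperature genes 0 were called by the main edgeR fit and 3 by DESeq2 (Cirbp, Rbm3 and Hspa1b). With the 6 ZT0 and ZT12 libraries alone edgeR called Cirbp (adjusted p = 0.0167) and Hspa1b (adjusted p = 0.0039). At an unadjusted p under 0.05, 2 were higher and 6 lower, the latter being Hspa1a, Hspa1b, Dnajb1, Hsph1, Hspa4l and Chordc1, and the median log2 difference was -0.102. The most abundant members, the constitutive chaperones Hspa8 and Hsp90ab1, had log2 differences of -0.17 (adjusted p = 0.703) and 0.08 (adjusted p = 0.793).

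**Figure D5:**
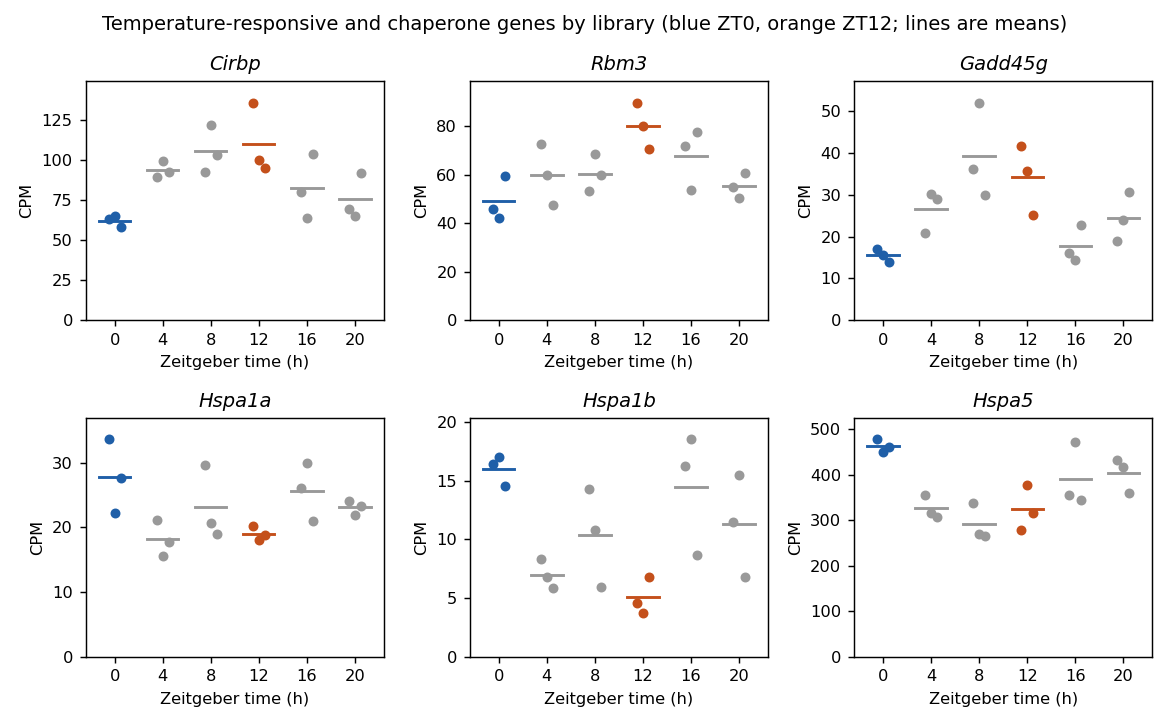
CPM of 6 stress-related genes in every IP library against Zeitgeber time in hours, with points for animals, lines for means of 3, ZT0 in blue and ZT12 in orange. Cirbp, Rbm3 and Gadd45g stand higher and Hspa1a, Hspa1b and Hspa5 lower at ZT12 than at ZT0 in all 3 libraries.

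No gene of the unfolded protein response, which raises chaperones of the endoplasmic reticulum, was called. Hspa5, the BiP chaperone of that response, was at 478, 450 and 462 CPM at ZT0 and at 279, 378 and 316 CPM at ZT12 (log2 difference -0.51, SE 0.132, adjusted p = 0.447). The disulfide isomerase Pdia6 had a log2 difference of -0.40 (SE 0.105, adjusted p = 0.53), and the abundant chaperone Hsp90b1 had one of -0.13 (adjusted p = 0.786) with overlapping libraries. Of the 15 genes of the response 0 were called by edgeR or DESeq2, 5 were lower and 0 higher at an unadjusted p under 0.05 (Hspa5, Pdia6, Calr, Xbp1 and Sdf2l1), and the median log2 difference was -0.204. Their groups did not overlap in 8 genes, all lower at dusk.

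Most glucocorticoid-responsive genes had positive differences, 11 of 12 in sign, beside 7687 of 15572 over all genes tested. Sgk1, a kinase that the hormone induces, was at 10.6, 6.52 and 10 CPM at ZT0 and at 15.3, 16.6 and 14.9 CPM at ZT12 (log2 difference 0.77, SE 0.254, adjusted p = 0.591). Plin4, a lipid droplet coat protein near the limit of detection, was at 0.552, 0.181 and 0.231 CPM at ZT0 and at 1.36, 2.61 and 2.59 CPM at ZT12 (log2 difference 2.71, SE 0.784, adjusted p = 0.591 in edgeR and 0.0495 in DESeq2). The abundant targets Tsc22d3 and Fkbp5 had log2 differences of 0.18 (adjusted p = 0.713) and 0.09 (adjusted p = 0.849) with overlapping libraries. Of 12 genes 0 were called by edgeR and 1 by DESeq2, 4 were higher (Plin4, Sgk1, Zbtb16 and Mt2) and 0 lower at an unadjusted p under 0.05, and the median log2 difference was 0.289. In the 6 IPs Plin4 stood at 14.5% of its input level, Sgk1 at 15%, Mt2 at 28.9% and Zbtb16 at 86.5%. Tsc22d3 stood at 261% and Fkbp5 at 479%. The part of RNA from untagged cells in these differences was not tested.

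Among the immediate early genes, Btg2 and Arc had differences of opposite sign. Btg2, which restrains proliferation, had a log2 difference of 0.72 (SE 0.254, adjusted p = 0.591) and Arc, a synaptic plasticity gene, of -0.71 (SE 0.256, adjusted p = 0.591). The abundant Jun and Junb had log2 differences of 0.19 (adjusted p = 0.764) and 0.20 (adjusted p = 0.807). Of 13 genes tested edgeR and DESeq2 called 0, with 1 higher and 1 lower at an unadjusted p under 0.05.

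Genes of protein synthesis, protein breakdown and respiration were mostly above 0 in sign but seldom distinct from the spread. Of 85 cytosolic ribosomal protein genes, 81 had a positive log2 difference with a median of 0.235, yet 2 passed an unadjusted p under 0.05 (Rpl29 and Rplp2). Mitochondrial ribosomal protein genes had a median of 0.115, with 8 of 78 higher and 0 lower at that threshold, among them Mrpl2 (log2 difference 0.45, adjusted p = 0.591). Respiratory chain genes had a median of 0.217, with 2 of 82 higher and 1 lower. Of 46 proteasome genes 9 were higher and 1 was lower, with a median of 0.122, a log2 difference of 0.24 for Psmd2 (adjusted p = 0.591) and of -0.44 for Psmd5 (adjusted p = 0.591). In none of these 4 lists did edgeR or DESeq2 call a gene, and genes within a list share libraries and do not count as replicates.

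Among genes of neuronal identity the cholinergic list held 1 higher and 1 lower gene at an unadjusted p under 0.05, and edgeR and DESeq2 called 0 of 7. Prph, which encodes the motor neuron intermediate filament peripherin, was at 2500, 2790 and 2360 CPM at ZT0 and at 3360, 3150 and 2930 CPM at ZT12 (log2 difference 0.30, SE 0.111, adjusted p = 0.593). Slc5a7, the choline transporter, was at 288, 284 and 345 CPM at ZT0 and at 201, 273 and 241 CPM at ZT12 (log2 difference -0.36, SE 0.171, adjusted p = 0.653). Of the 4 markers of inhibitory neurons, which stood at 25.2% to 87.3% of their input level, edgeR and DESeq2 called 0. Whether tagged cells contribute to these markers was not tested. Their summed level was 321 to 338 CPM at ZT0 and 247 to 298 CPM at ZT12, and of 4 genes 2 passed an unadjusted p under 0.05, Gad2 (log2 difference -0.40, adjusted p = 0.591) and Slc6a5 (log2 difference -0.29, adjusted p = 0.653). The part of inhibitory neurons in the differences of other genes was not tested. In the lists of oligodendrocyte, astrocyte, microglial, excitatory neuron, endothelial, Schwann cell, fibroblast and cytoskeletal genes and of genes rhythmic in many tissues, edgeR and DESeq2 called 0 genes and 0 passed an unadjusted p under 0.05. Of 8 clock-modifying kinase and ligase genes, 1 did so, Csnk1d (log2 difference 0.20, adjusted p = 0.653), and neither tool called any.

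No receptor or channel gene passed. Of 8 NMDA receptor genes edgeR and DESeq2 called 0, and Grin2b was at 58.8, 55.5 and 55.7 CPM at ZT0 and at 44.7, 47.6 and 49.4 CPM at ZT12 (log2 difference -0.26, SE 0.104, adjusted p = 0.627). Of 70 potassium channel genes 4 were lower and 0 higher at an unadjusted p under 0.05, with 0 called by edgeR or DESeq2. The lower ones included Kcnc1, a fast delayed rectifier (log2 difference -0.33, adjusted p = 0.627), and Kcnk1, a leak channel (log2 difference -0.56, adjusted p = 0.591). Over the 70 channel genes 20 differences were positive and 50 negative, with a median log2 difference of -0.11. Their libraries did not overlap for 1 higher and 15 lower genes, beside 7.45% and 8.80% over all genes tested. These genes share libraries and do not count as replicates.

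Other genes near the threshold were ranked by p among those whose libraries did not overlap. Gadd45g, a stress-responsive growth arrest gene, was at 17.1, 15.5 and 13.9 CPM at ZT0 and at 41.7, 35.7 and 25.1 CPM at ZT12 (log2 difference 1.13, SE 0.234, adjusted p = 0.145 in edgeR and 0.00196 in DESeq2). Chpf2, which extends chondroitin chains, was at 131, 133 and 119 CPM at ZT0 and at 205, 160 and 192 CPM at ZT12 (log2 difference 0.54, SE 0.111, adjusted p = 0.145 in edgeR and 0.00295 in DESeq2). Both were higher in every dusk library, which the selection of genes without overlap required. Pou3f2, a neuronal transcription factor, was at 14.5, 16.9 and 18.1 CPM at ZT0 and at 9.24, 10.2 and 11.1 CPM at ZT12 (log2 difference -0.70, SE 0.152, adjusted p = 0.218 in edgeR and 0.038 in DESeq2). Slc5a3, a myo-inositol transporter, Tmem33 and Uhrf2 had log2 differences of -0.60 (adjusted p = 0.243 in edgeR and 0.0432 in DESeq2), -0.45 (0.243 and 0.0333) and -0.59 (0.28 and 0.0498). Of the RNA-binding protein genes Ewsr1 was at 136, 132 and 134 CPM at ZT0 and at 178, 209 and 169 CPM at ZT12, without overlap (log2 difference 0.47, SE 0.115, adjusted p = 0.399 in edgeR and 0.0498 in DESeq2). In that list of 10 genes 5 differences were positive and 5 negative, with a median log2 difference of 0.00418. The libraries did not overlap for 3 genes that were higher and 3 that were lower.

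The precision of the comparison followed the level of the gene. The median standard error of the log2 difference was 0.95 for the 2074 genes under 1 CPM, 0.369 for the 4829 genes between 1 and 10 CPM, 0.157 for the 6572 genes between 10 and 100 CPM and 0.111 for the 2097 genes above. For scarce genes such as Npas2 or Rorb a difference of the size of that of Tef was not detectable at this depth and number of animals.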

How the data were processed

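The authors aligned paired-end reads of hemagglutinin immunoprecipitates (1 spinal cord per sample) with STAR 2.7.5 to mm10 and deposited expected counts per gene from RSEM, unnormalized and not tied to single copies where reads matched several genes. Replicates were separate animals, and all value columns were mapped to samples by name.

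Expected counts were rounded. Genes were kept with filterByExpr of edgeR 4.0.16 (R 4.3.3), scaled by TMM and fitted with a quasi-likelihood model to the 6 time-point means of all 18 immunoprecipitates. ZT12 minus ZT0 was tested with Benjamini-Hochberg adjustment at 0.05. Standard errors came from the F statistic. The procedure was tested on simulated data. Promoters were the 250 bases before RefSeq start sites (GRCm38.p6), aligned with Biopython 1.88. Alternatives were other scalings and filters, DESeq2 1.42.0, the 6 libraries alone, a replicate block, an oligodendrocyte covariate, leaving out each immunoprecipitate and, chosen after seeing the data, sums of near-identical copies.

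The genes named were the called genes, all clock genes, the 5 higher and 5 lower uncalled genes of lowest p whose libraries did not overlap, and the most abundant and lowest-p members of each further list. Members and lists were chosen with earlier results of these data known. Alas2 was added after its values were seen, and Slc4a1 and Bpgm were looked up with it. Not every gene under this rule is printed singly, and list counts cover the rest. Of the called genes and of the clock genes, 1 each is not reported here. Same-numbered replicates of ZT0 and ZT12 had correlated deviations of -0.27, 0.0788 and 0.191, so the numbers were not treated as pairs.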

Additional observations from a re-analysis of the deposited data

How the results depend on the processing

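The count of called genes (5 with all libraries) stayed within 1.5 times under a minimum of 10 counts in total, the 3 other scalings, the replicate block and the oligodendrocyte covariate. It was 187 with a filter of at least 1 count, 28 in the DESeq2 Wald test, 15 with the 6 libraries alone, and 3 with near-identical copies summed. When 1 immunoprecipitate was left out, it ranged from 0 to 7. Clock genes called (1 with all libraries) were 3 with a filter of at least 1 count, 2 in DESeq2, and 0 to 1 when 1 immunoprecipitate was left out. The replicate block gave 5 calls. Replicate numbers did not pair the samples. The causes of these shifts were not tested, beyond the smaller or larger number of libraries or genes in the fit.

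Of 111 named genes, 99 kept their sign in every alternative run and 12 turned it, whose differences with all libraries lay between -0.143 and 0.0121. With library totals the log2 difference was -0.039 for Cry2, -0.029 for Fbxw11 and -0.033 for Nefl. With at least 10 counts it was -0.0079 for Cry2 and -0.0031 for Nefl, with at least 1 count -0.0053 for Cry2, and with the oligodendrocyte covariate 0.015 for Pmp22. Over the fits without 1 immunoprecipitate it ranged from -0.046 to 0.056 for Cry2, -0.024 to 0.045 for Fbxw11, -0.034 to 0.056 for Nefl, -0.096 to 0.052 for Pmp22, -0.38 to 0.19 for Nfil3, -0.21 to 0.018 for Mbp, -0.14 to 0.10 for Rora, -0.12 to 0.051 for Nefm, -0.40 to 0.0020 for Leo1, -0.26 to 0.11 for Dcn, -0.082 to 0.018 for Coq10b and -0.21 to 0.055 for Slc17a6. At 3 animals a time point, differences of genes under 1 CPM could not be resolved.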
